A study of Mus musculus with 10 samples.

Results

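Enteroendocrine cells are single hormone cells scattered through the gut epithelium, and each of them makes a few of a common set of peptides or serotonin. The genes described here are Gip, Cck, Pyy, Sct, Nts, Tac1, Tph1 and Insl5, which encode 7 such hormone precursors and, in Tph1, the enzyme that starts serotonin synthesis. They were found as the probes of a mouse array whose annotation gives exactly 1 gene symbol that is one of these names, and each of the 8 genes had 1 such probe, of 18069 genes with a probe of this kind. The series holds total RNA of 10 samples, 2 in each of 5 groups, hybridised to 1-colour CodeLink whole-genome mouse arrays. The Dox(+) EBs were day 13 embryoid bodies, floating aggregates of differentiating ES cells, that had received 1 µg/ml doxycycline (Dox) from day 4, and the Dox(−) EBs were the same without Dox. Both EB groups came from a single engineered line of Ainv18 ES cells, and both received activin A, BMP4 and bFGF. By their source label and the study's methods they carry an inducible Pdx1-IRES-Ngn3 cassette, while their description and tissue type labels name activated Notch4 in its place, and which of these is right was not settled. The other groups were βTC6 cells, a mouse insulinoma line, islets, and pancreas of E15.5 embryos, none of which received Dox. The labels give no age for the islets. The study's text calls them adult, while a heading in its supplement gives E15.5, and which is right was not settled.

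Gut enteroendocrine cells and the endocrine cells of the pancreas both arise from endoderm through progenitors that switch on Ngn3 (Neurog3), and both store peptides in dense-core granules after prohormone convertases have cut the precursors. Several gut hormones, PYY among them, are also made in pancreatic endocrine cells. GIP is the incretin of the upper gut K cells, CCK of I cells drives gallbladder contraction and enzyme secretion, secretin of S cells drives bicarbonate secretion, PYY and INSL5 come from L cells, neurotensin from N cells, and Tac1, which encodes substance P, marks some serotonin cells and enteric neurons. The question of the arrays was which genes follow the induction of Pdx1 and Ngn3 in EBs, with the insulinoma, islets and embryonic pancreas as pancreatic standards.

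Levels are the deposited scaled intensities, on which the median probe of each array is 1, so that a level can be compared between groups for the same gene but not between genes. Per array, 66.0% to 74.3% of 34967 probes were above background. Levels under 0.27 were set to 0.27. Between 63 and 117 probes per array were saturated, the lowest saturated level lying at 157 to 257 depending on the array, so a saturated level is only a lower limit, and 1 lower limit cannot be ranked against another. For Pdx1, no EB array gave a signal over background, and the probe read 0.776 and 0.598 in βTC6 cells and 0.524 and 0.482 in islets. The Neurog3 probe read 0.447 and 0.557 in Dox(+) EBs, against 0.458 and 0.520 in Dox(−) EBs (adjusted p = 0.962 from limma). The Notch4 probe read 0.877 on the 1 Dox(+) array that measured it, against 0.637 and 0.799 in Dox(−) EBs (adjusted p = 0.399 from limma). Whether these probes lie in the parts of the genes carried by the cassette is not given in the sources used here, so they do not check the labels. EB arrays, E15.5 pancreas arrays and the βTC6 and islet arrays carry 3 separate ranges of slide numbers, and outside the comparisons of Dox(+) with Dox(−) EBs and of βTC6 cells with islets the range and the tissue cannot be told apart. The labels number biological replicates without saying that each was a culture or dissection of its own. The p-values therefore cover just the spread among these samples, and that spread may be technical.

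With Dox, 6 of the 8 gut hormone genes were higher in EBs. Gip, Cck, Pyy and Sct read 115 or more in Dox(+) EBs, against levels near the array median or a little over it in Dox(−) EBs, Nts and Tac1 rose less, and Tph1 and Insl5 did not pass the test. By limma 0 were lower, also at an unadjusted p under 0.05. Among all 28193 probes tested, 20.7% were higher and 22.5% lower with Dox (limma, adjusted p under 0.05). The median log2 difference was 4.67 over the 8 genes and -0.03 over all probes. The 8 genes were chosen with earlier results of these data known, and the study names Gip, Cck, Pyy and Sct from these arrays. Their contrast with all probes is therefore a description and not a test. RNA was taken from whole EBs, so more cells of a type and more RNA per cell cannot be told apart here.

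**Figure D1:**
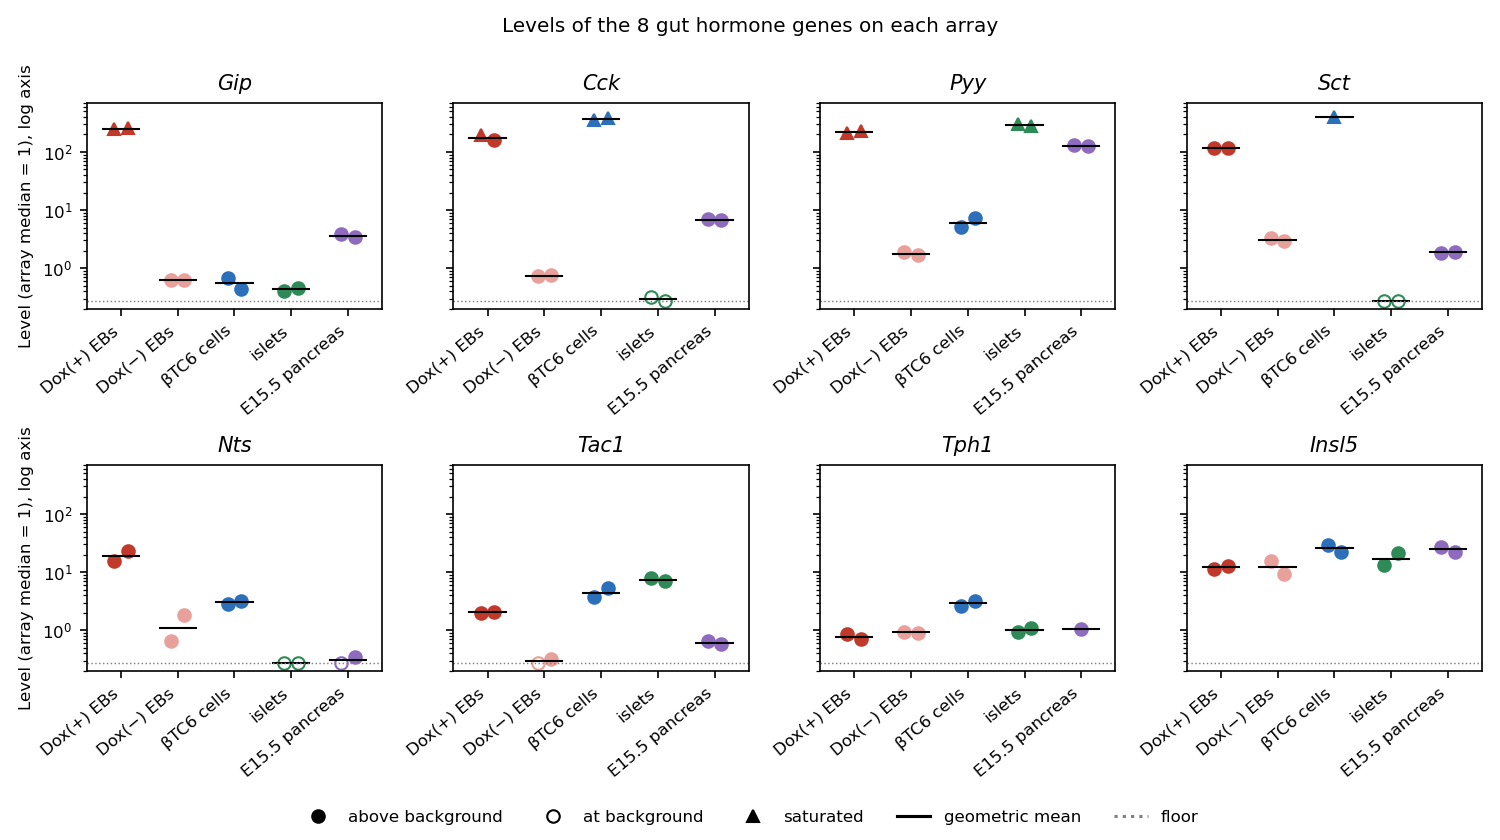
Level of each of the 8 gut hormone genes on every array (array median 1, log axis), by group, with filled circles above background, open circles at background, triangles saturated, black lines the geometric mean and a dotted line the floor of 0.27. Gip stands at 243 and 259 in Dox(+) EBs and at or under 3.80 in all other groups, while Insl5 lies between 9.41 and 29.2 on all arrays.

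Gip, which encodes the glucose-dependent insulinotropic peptide, read 243 and 259 in Dox(+) EBs, both saturated, against 0.614 and 0.631 in Dox(−) EBs. The groups do not overlap, and the rise was at least 403-fold (log2 difference 8.66, SE 0.17, adjusted p = 1.28e-10 from limma). Cck, the cholecystokinin gene, read 194 and 160 in Dox(+) EBs, the first of them saturated, against 0.726 and 0.749 in Dox(−) EBs. Its rise was at least 239-fold (log2 difference 7.90, SE 0.11, adjusted p = 3.05e-11 from limma). Pyy, which encodes peptide YY, read 213 and 231 in Dox(+) EBs, both saturated, against 1.86 and 1.66 in Dox(−) EBs, a rise of at least 126-fold (log2 difference 6.98, SE 0.14, adjusted p = 1.79e-10 from limma). Sct, the secretin gene, was not saturated in either EB group. It read 118 and 115 in Dox(+) EBs against 3.26 and 2.93 in Dox(−) EBs, a 37.7-fold rise (log2 difference 5.24, SE 0.09, adjusted p = 3.44e-10 from limma), and its Dox(−) level was already over the array median.

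Nts, which encodes neurotensin, was the member whose Dox(−) arrays differed most. It read 15.4 and 22.7 in Dox(+) EBs, against 0.653 and 1.81 in Dox(−) EBs, and all 4 values were above background. The 17.2-fold rise (log2 difference 4.11, SE 0.38, adjusted p = 9.08e-06 from limma) became 10.3-fold without Dox(−) replicate 1 and 28.6-fold without Dox(−) replicate 2, with the test still passed. Tac1 reached only 2.00 and 2.04 in Dox(+) EBs, against 0.27 and 0.315 in Dox(−) EBs, of which the first was at background. The rise passed the test (log2 difference 2.80, SE 0.17, adjusted p = 4.03e-07 from limma), but its size of 6.95-fold rests on the floor, and it was 2.03-fold with a floor of 1 and 3.19-fold with normexp and quantile normalization. Tph1, the tryptophan hydroxylase of peripheral serotonin cells, read 0.848 and 0.718 in Dox(+) EBs, against 0.945 and 0.906 in Dox(−) EBs (log2 difference -0.25, SE 0.16, adjusted p = 0.254 from limma). Insl5, a relaxin family peptide of colonic L cells, read 11.5 and 12.9 in Dox(+) EBs, inside the 15.6 and 9.41 of the Dox(−) EBs (log2 difference 0.01, SE 0.26, adjusted p = 1.0 from limma).

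The 250 bases before the RefSeq start of Gip, Cck, Pyy and Sct, which rose most, are printed here because bHLH factors such as Ngn3 bind E-boxes of the form CANNTG and homeodomain factors such as Pdx1 bind sites with a TAAT core. Capitals mark every CANNTG, which reads the same on both strands, and every TAAT on either strand (TAAT or ATTA). All lines run 5′ to 3′ towards the gene start on the strand of the gene, from the RefSeq promoter table of build GRCm38.p6. They are chr11:96024295-96024544 on the plus strand for Gip, chr9:121495695-121495944 on the minus strand for Cck, chr11:102107833-102108082 on the minus strand for Pyy and chr7:141279134-141279383 on the minus strand for Sct.
Gip: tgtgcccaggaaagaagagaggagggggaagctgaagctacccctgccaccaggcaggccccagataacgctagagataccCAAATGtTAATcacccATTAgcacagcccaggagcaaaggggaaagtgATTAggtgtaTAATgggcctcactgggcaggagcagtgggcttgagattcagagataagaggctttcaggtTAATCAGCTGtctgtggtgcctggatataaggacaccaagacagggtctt
Cck: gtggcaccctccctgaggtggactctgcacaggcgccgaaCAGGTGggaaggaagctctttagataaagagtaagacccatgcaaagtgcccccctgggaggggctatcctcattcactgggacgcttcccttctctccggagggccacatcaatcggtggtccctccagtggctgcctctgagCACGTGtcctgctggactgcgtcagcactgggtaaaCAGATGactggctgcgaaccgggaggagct
Pyy: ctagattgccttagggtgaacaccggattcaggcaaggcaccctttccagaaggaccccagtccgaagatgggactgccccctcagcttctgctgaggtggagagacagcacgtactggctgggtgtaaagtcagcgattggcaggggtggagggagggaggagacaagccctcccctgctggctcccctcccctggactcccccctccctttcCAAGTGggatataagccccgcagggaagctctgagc
Sct: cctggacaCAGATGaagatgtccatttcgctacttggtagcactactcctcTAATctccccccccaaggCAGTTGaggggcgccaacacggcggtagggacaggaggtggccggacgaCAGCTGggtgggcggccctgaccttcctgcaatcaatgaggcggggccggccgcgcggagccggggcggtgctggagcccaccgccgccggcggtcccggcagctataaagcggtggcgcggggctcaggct
The Gip window holds 2 CANNTG and 5 TAAT matches, and its second CANNTG, 46 bases before the start, directly follows a TAAT. The Cck window has 3 CANNTG matches and the Pyy window 1, both with 0 TAAT matches, and the Sct window has 3 CANNTG matches and 1 TAAT match. No CANNTG match overlaps a TAAT match in any of the 8 windows. Over all 8 genes, 7 windows hold CANNTG and 5 hold TAAT, while CANNTG occurs in 66.2% and TAAT in 54.9% of the 32851 windows of this length in the table. The Tph1 window holds neither. A match is a run of letters and not a measured binding site.

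Dox(+) EBs were then set against the 3 pancreatic standards, which asks whether these hormones are features of the insulinoma, of islets or of embryonic pancreas. These comparisons share the Dox(+) arrays. Gip and Nts were higher in Dox(+) EBs than in each of the other 4 groups, Cck, Pyy and Sct than in 3, Tac1 than in 2, and Tph1 and Insl5 than in none of them. Of the 28109 probes with a value in all 4 comparisons, 5.32% were higher in Dox(+) EBs than in each of the other groups.

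**Figure D2:**
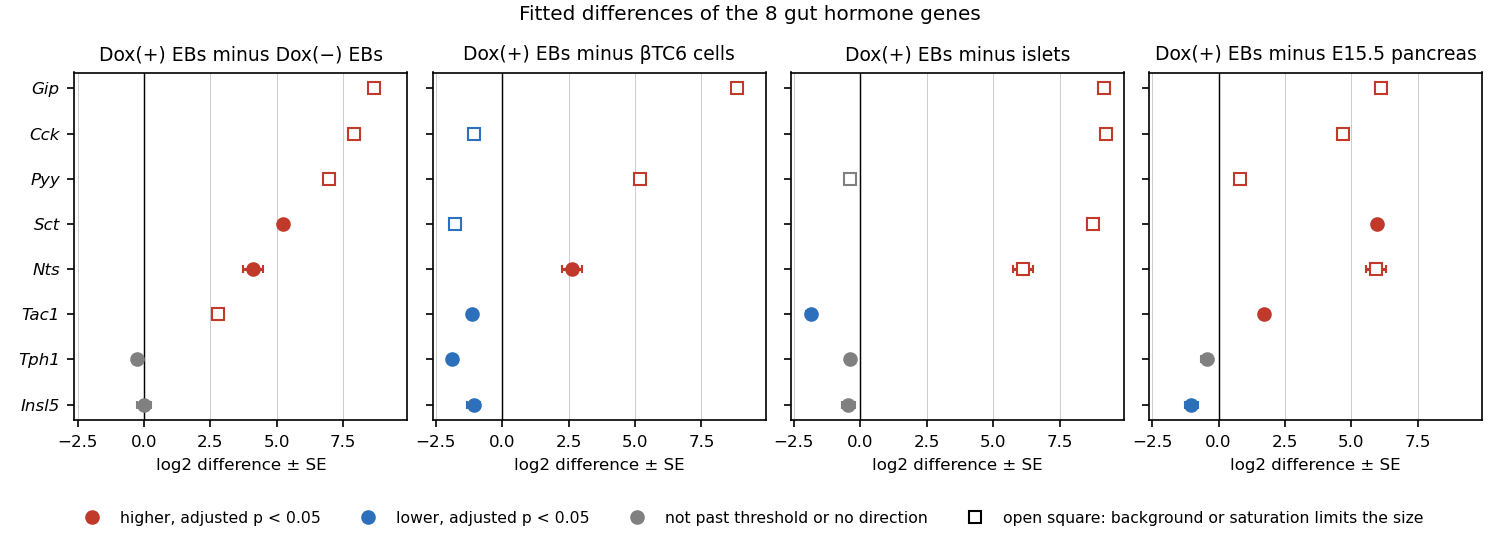
Fitted log2 difference of each gut hormone gene between Dox(+) EBs and each of the other 4 groups, with bars of 1 standard error, red where higher and blue where lower at an adjusted p under 0.05, and open squares where background or saturation limits the size. Gip lies at 6.12 or more in all 4 panels, and Tac1 lies above 0 against Dox(−) EBs and E15.5 pancreas and below 0 against βTC6 cells and islets.

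Against E15.5 pancreas, 6 of the 8 genes were higher in Dox(+) EBs and 1, Insl5, was lower (33.0% and 26.9% of 28146 probes, limma). Gip read 243 and 259 in Dox(+) EBs, against 3.80 and 3.44 in E15.5 pancreas, which is 69.4-fold or more (adjusted p = 1.43e-09). E15.5 pancreas was nevertheless the second highest group for Gip, 5.81-fold above Dox(−) EBs. Cck was at least 25.7-fold higher than in E15.5 pancreas, where it read 6.89 and 6.81. Sct was 62.4-fold higher, with 1.85 and 1.88 in E15.5 pancreas. Nts was also higher, with 0.27 and 0.348 in E15.5 pancreas, the first of these at background (adjusted p = 3.28e-07 from limma), and its fold moved with the floor, from 61.0 as fitted to 18.7 with a floor of 1. Pyy read 213 and 231, both saturated, in Dox(+) EBs, against 133 and 124 in E15.5 pancreas, at least 1.73-fold higher (log2 difference 0.79, SE 0.14, adjusted p = 0.000771 from limma). Tac1 was 3.29-fold higher than the 0.651 and 0.581 of E15.5 pancreas, or 2.03-fold with a floor of 1. Insl5 was 2.03-fold lower than the 27.2 and 22.5 of E15.5 pancreas (adjusted p = 0.00547), which no longer passed without Dox(+) replicate 1 (adjusted p = 0.0584) or without E15.5 pancreas replicate 1 (adjusted p = 0.0589).

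Against islets, 4 genes were higher in Dox(+) EBs, 1 was lower and 1, Pyy, could not be ordered (36.4% higher and 31.6% lower of 28165 probes, limma). Cck, Sct and Nts were at background on both islet arrays, with 0.317 and 0.27 for Cck and 0.27 on both arrays for Sct and Nts, so that Dox(+) EBs were at least 601-fold, 431-fold and 69.2-fold higher. Gip was low but above background in islets, at 0.413 and 0.459, and Dox(+) EBs were at least 577-fold higher. Pyy read 213 and 231 in Dox(+) EBs and 298 and 280 in islets, all 4 saturated. Tac1 had its highest level in islets, at 7.78 and 7.04, which is 3.66-fold above Dox(+) EBs (adjusted p = 3.25e-06 from limma). Tph1 read 0.949 and 1.09 in islets and its difference from Dox(+) EBs missed the threshold (adjusted p = 0.0578 from limma), but passed without βTC6 replicate 1 (adjusted p = 0.0368) or βTC6 replicate 2 (adjusted p = 0.0373), neither of which enters this difference itself. Insl5, at 13.2 and 21.0 in islets, missed it too (adjusted p = 0.143) but passed without islets replicate 1 (adjusted p = 0.0437). The levels of 10 markers of pancreatic acinar cells summed to between 27.3 and 31.4 in Dox(+) EBs, against at least 1859 and 1876 in islets. Cpa1, Cel, Cela1, Cela3b, Prss2 and Amy2a5 were saturated on both islet arrays, and Cela2a was not measured on islets replicate 1. The islet sums are therefore lower limits, and the part of acinar RNA in the islet values was not tested.

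Against βTC6 cells the 8 genes divided into 3 higher and 5 lower in Dox(+) EBs (25.5% and 37.5% of 28166 probes, limma). Gip was low in the insulinoma, at 0.672 and 0.446, and Dox(+) EBs were at least 459-fold higher. Pyy read 5.07 and 7.22 in βTC6 cells, so that Dox(+) EBs were at least 36.7-fold higher, and Nts read 2.84 and 3.21 and was 6.19-fold higher in Dox(+) EBs (adjusted p = 0.000114 from limma). Sct was saturated in βTC6 cells, at 401 on the 1 array that measured it, at least 3.45-fold over Dox(+) EBs (adjusted p = 6.94e-07 from limma) but 1.84-fold under both quantile settings, and the fit took its spread from the other groups. Cck read 194 and 160 in Dox(+) EBs, against 356 and 376 in βTC6 cells. With 3 of these 4 spots saturated the size of its difference was not measured, and the call of lower (adjusted p = 1.31e-05 from limma) was lost under quantile normalization (adjusted p = 0.165, and 0.107 with normexp before it). Tac1 was 2.17-fold and Tph1 3.70-fold lower than in the insulinoma, where Tac1 read 3.67 and 5.26 and Tph1 2.59 and 3.23. Insl5 was 2.11-fold lower than the 29.2 and 22.6 of βTC6 cells (adjusted p = 0.0037), which was also lost under quantile normalization (adjusted p = 0.0612, and 0.141 with normexp before it).

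The pancreatic standards differed from each other as well. Between βTC6 cells and islets, which share a range of slide numbers, 4 genes were higher and 2 lower in βTC6 cells (39.1% and 27.0% of 28219 probes, limma). Cck was at least 1251-fold and Sct at least 1485-fold higher in βTC6 cells, and Nts at least 11.2-fold and Tph1 2.84-fold higher. Pyy was at least 47.7-fold and Tac1 1.68-fold lower in βTC6 cells than in islets. Between βTC6 cells and E15.5 pancreas, 5 genes were higher and 2, Gip at 6.61-fold and Pyy at 21.2-fold, were lower in βTC6 cells (41.8% and 23.8% of 28174 probes, which under quantile normalization were 9529 higher and 8453 lower probes, against 11773 and 6697). Between islets and E15.5 pancreas, 2 genes, Tac1 at 12.0-fold and Pyy at no less than 2.25-fold, were higher in islets, and Gip, Cck and Sct were lower, by 8.31-fold, at least 23.4-fold and at least 6.90-fold (32.4% and 32.5% of 28174 probes). For probes of all kinds the median log2 difference was -0.11 between Dox(+) EBs and βTC6 cells and 0.21 between βTC6 cells and E15.5 pancreas, and quantile normalization moved these to 0.00 and 0.04.

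By mean log2 level, the order of the groups differed from gene to gene. For Gip it was Dox(+) EBs, E15.5 pancreas, Dox(−) EBs, βTC6 cells and islets. Neither Dox(−) EBs against βTC6 cells (adjusted p = 0.366 from limma) nor βTC6 cells against islets (adjusted p = 0.112) passed the test. Without βTC6 replicate 2 the last pair did (adjusted p = 0.00147). For Sct the order was βTC6 cells, Dox(+) EBs, Dox(−) EBs, E15.5 pancreas and islets. For Cck βTC6 cells and Dox(+) EBs, with 3 of 4 spots saturated, were the top groups without a settled order, followed by E15.5 pancreas, Dox(−) EBs and islets. For Pyy islets and Dox(+) EBs shared the top without a measured order, followed by E15.5 pancreas, βTC6 cells and Dox(−) EBs. For Nts the order was Dox(+) EBs, βTC6 cells, Dox(−) EBs, E15.5 pancreas and islets, and the last pair did not pass the test (adjusted p = 0.704). For Tac1 it was islets, βTC6 cells, Dox(+) EBs, E15.5 pancreas and Dox(−) EBs, and every neighbouring pair passed the test. Tph1 was highest in βTC6 cells, and no neighbouring pair of the other 4 groups, all between 0.718 and 1.09, passed the test. Insl5 was highest in βTC6 cells and E15.5 pancreas, and none of its neighbouring pairs passed the test.

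Across the 10 arrays, which are 5 pairs of replicates, Cck and Sct had the most similar levels of the 28 pairs of members (Pearson r = 0.94 over 9 arrays), followed by Sct and Nts (r = 0.87 over 9 arrays), with saturated and background values in each. Gip went furthest with Nts (r = 0.70), and Pyy with Gip (r = 0.48 over 10 arrays). The most similar other genes, of 14886 genes compared and by Pearson r of log2 levels, were Slc44a5 (r = 0.998) and Dpysl4 (r = 0.99) for Gip, and Plcl1 (r = 0.995) and Ecel1 (r = 0.981) for Cck. Slc44a5 read 6.81 and 6.14 in Dox(+) EBs and 0.27 on both arrays of Dox(−) EBs, βTC6 cells and islets. For Pyy they were Hdac11 (r = 0.989) and Sowaha (r = 0.976), and for Nts Unc13c (r = 0.983) and Mynn (r = 0.983). For Tac1 they were Tctn3 (r = 0.995) and Pcsk1n (r = 0.994), a granule protein gene. Over the 9 arrays that measured them, Sct went with Etv4 (r = 0.994) and Asphd2 (r = 0.994) and Tph1 with Mrpl40 (r = 0.994) and Tomm7 (r = 0.991). Insl5 had the weakest partners, Rint1 (r = 0.949) and Fancf (r = 0.941).

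The other peptide hormone genes of gut and enteric neurons rose in many but not all cases. Of 18 with a probe, 16 were tested in the comparison of Dox(+) with Dox(−) EBs. Of these, 10 were higher, 1 was lower and 5 did not pass, beside 20.7% higher and 22.5% lower among all probes. The median log2 difference of the 16 was 2.00. Sst, the somatostatin gene of D cells, read 120 and 103 in Dox(+) EBs and was at background without Dox, which is at least 406-fold (log2 difference 8.69, adjusted p = 5.59e-12 from limma). Cartpt, which encodes a peptide of enteric neurons and islet cells, read 33.5 and 34.2 in Dox(+) EBs, against background in Dox(−) EBs, at least 123-fold higher. Nmu, the neuromedin U gene, was the one that fell, to 0.443 and 0.384 in Dox(+) EBs against 4.50 and 4.46 in Dox(−) EBs (10.9-fold, adjusted p = 2.94e-08). Nmb, the neuromedin B gene, read 7.81 and 6.80 in Dox(+) EBs, against 7.46 and 7.58 in Dox(−) EBs. Gcg, whose precursor is cut to glucagon in α cells and to GLP-1 in L cells, read 41.1 and 41.9 in Dox(+) EBs, against 0.451 and 0.432 in Dox(−) EBs, and Ghrl, the ghrelin gene of the stomach and of pancreatic ε cells, read 38.5 and 31.6 against 4.45 and 3.73. Ghrl in Dox(+) EBs was also 1.73-fold above the 21.4 and 19.0 of E15.5 pancreas (adjusted p = 0.0182 from limma) and 7.93-fold above the 4.33 and 4.48 of islets. Gcg went the other way, with Dox(+) EBs 2.30-fold below E15.5 pancreas (adjusted p = 1.95e-05 from limma) and 3.30-fold below βTC6 cells. Of the 16 genes, Dox(+) EBs exceeded E15.5 pancreas for 8 and fell short of it for 6, beside 33.0% and 26.9% of all probes. Against islets these counts were 8 and 8 (36.4% and 31.6%), and against βTC6 cells 3 and 10 (25.5% and 37.5%).

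**Figure D3:**
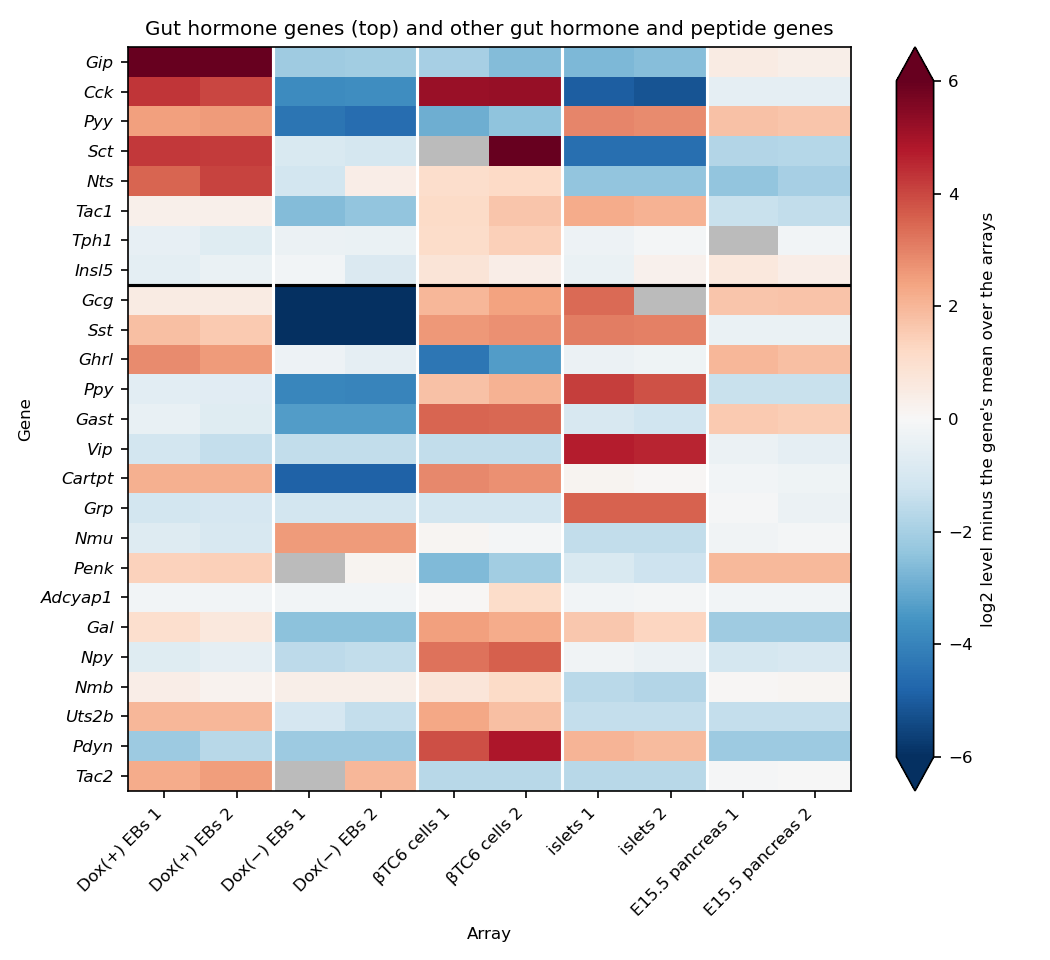
Log2 level of each gut hormone gene (above the line) and each other gut hormone or peptide gene with any level over the floor, minus that gene's mean over the arrays, on the 10 arrays, with spots not measured in grey. Dox(+) EBs are above the gene's mean for Gip, Cck, Pyy, Sct and Nts, and the rows of Vip and Grp stand out in islets alone.

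All 13 genes of prohormone processing and granules with a probe were higher in Dox(+) than in Dox(−) EBs, beside 20.7% of all probes. The median log2 difference of the 13 was 4.47. Scg3, a granin that helps to load granules, read 161 and 122 in Dox(+) EBs, against 0.539 and 0.607 in Dox(−) EBs (245-fold, adjusted p = 5.98e-11 from limma), and Resp18 read 21.4 and 25.6 against background, at least 85.3-fold higher. The smallest rises were those of Slc18a1, a vesicular monoamine transporter, at 3.33 and 3.15 in Dox(+) EBs against 1.97 and 1.75 in Dox(−) EBs, and of Pam, the enzyme that amidates the ends of peptides such as CCK, PYY, secretin and substance P, at 98.4 and 71.4 against 35.2 and 36.4. In Dox(+) EBs the 13 genes were all above E15.5 pancreas, while 10 were below βTC6 cells and 10 below islets. Among all probes, 33.0% were above E15.5 pancreas, 37.5% below βTC6 cells and 31.6% below islets.

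Of the 17 tested transcription factors of enteroendocrine development, 12 rose with Dox, 1 fell and 4 did not pass. Among all probes 20.7% rose and 22.5% fell. The median log2 difference of the 17 was 2.56. Pax6, a paired homeodomain factor needed for several hormone genes, read 37.2 and 35.2 in Dox(+) EBs, against 0.296 and 0.27 in Dox(−) EBs, both at background, a rise of at least 128-fold (adjusted p = 3.19e-11 from limma). Insm1, a zinc finger factor of endocrine progenitors, read 28.6 and 21.1 in Dox(+) EBs, against background, at least 89.6-fold higher. Foxa1, a forkhead factor of gut endoderm, fell to 5.85 and 5.51 in Dox(+) EBs, against 14.3 and 14.8 in Dox(−) EBs (2.56-fold, adjusted p = 6.8e-07). Prox1 read 3.44 and 2.94 in Dox(+) EBs, against 4.51 and 4.18 in Dox(−) EBs (adjusted p = 0.0558). Against E15.5 pancreas 12 of these factors were higher in Dox(+) EBs and the other 5 did not pass, beside 33.0% higher and 26.9% lower among all probes.

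The list of receptor genes for these hormones also held Glp1r, the receptor gene of GLP-1, which comes from Gcg and not from the 8 genes. Gipr, the GIP receptor gene, and Rxfp4 had no probe with a single gene symbol. Of the 17 tested genes, 4 were higher in Dox(+) than in Dox(−) EBs, 5 were lower and 8 did not pass. Among all probes 20.7% were higher and 22.5% lower. The median log2 difference of the 17 was -0.07, and its difference from the hormone genes was not tested. The largest rises were of Htr3a, a serotonin-gated channel subunit, at 0.776 and 0.765 in Dox(+) EBs against background in Dox(−) EBs (at least 2.81-fold, adjusted p = 2.84e-05 from limma), and of Tacr3, a tachykinin receptor, at 0.606 and 0.574 against background (at least 2.15-fold). Htr1d, a serotonin receptor, fell to 7.20 and 7.17 in Dox(+) EBs, against 12.9 and 14.5 in Dox(−) EBs (1.90-fold), and Sctr, the secretin receptor, to 0.787 and 0.858 against 1.32 and 1.36 (1.63-fold).

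Of 12 tested serotonin handling genes, the list to which Tph1 belongs, 3 rose, 5 fell and 4, Tph1 among them, did not pass, beside the same 20.7% and 22.5% of all probes, with a median log2 difference of -0.26. Gch1, which supplies the hydroxylase cofactor, was 2.56-fold higher in Dox(+) EBs, at 18.5 and 17.5 against 7.09 and 6.98 in Dox(−) EBs. Slc6a4, the serotonin transporter, fell to 1.43 and 1.53 in Dox(+) EBs against 14.9 and 13.1 in Dox(−) EBs (9.46-fold, adjusted p = 1.45e-08 from limma), and Maob, a monoamine oxidase, to 4.48 and 4.07 against 14.1 and 13.6 (3.25-fold). Tph2, the neuronal hydroxylase, was at background on all 4 EB arrays.

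**Figure D4:**
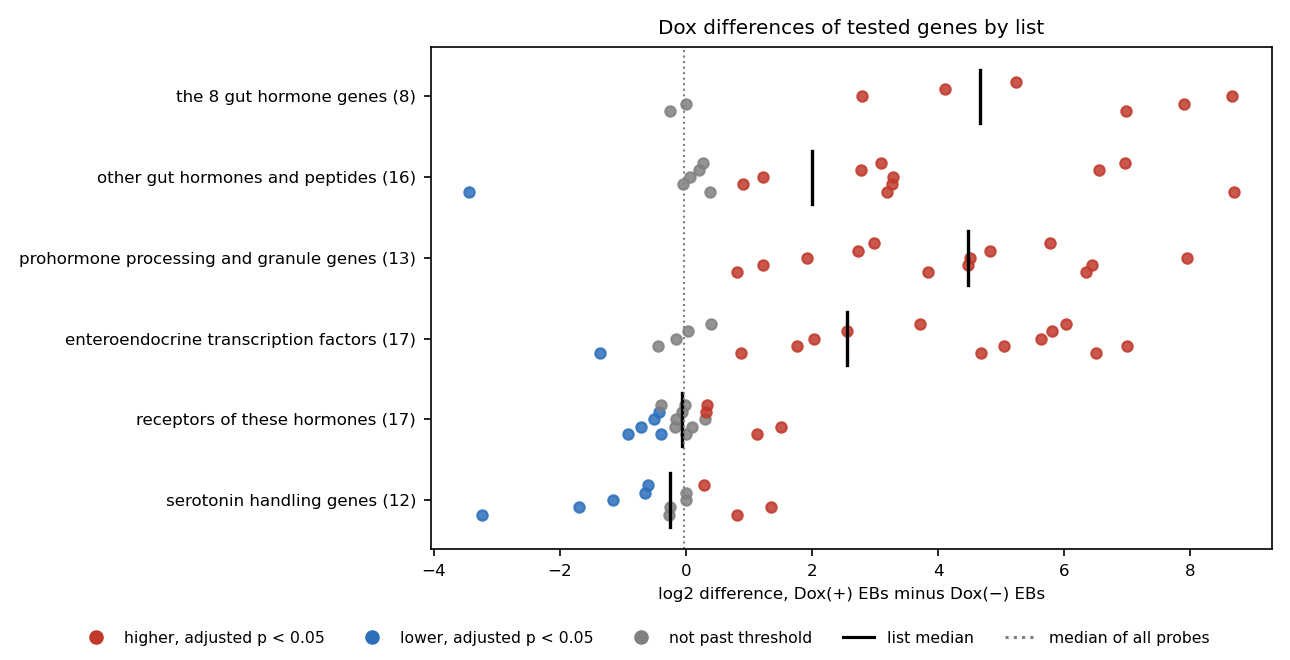
Log2 difference between Dox(+) and Dox(−) EBs of each tested gene in 6 lists (number of genes in brackets), red where higher and blue where lower at an adjusted p under 0.05, with the list median as a black bar and the median of all probes as a dotted line. The medians lie at 4.67 for the 8 gut hormone genes, 4.47 for granule genes and 2.56 for transcription factors, and at -0.07 for receptors and -0.26 for serotonin handling genes.

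Genes used as markers of other cell types also differed with Dox, and their part in the differences of the hormone genes was not tested. The lists do not cleanly separate cell types. The neuronal genes summed highest in the βTC6 line, and the study cites earlier work that ties Dcx, Stmn2 and Tubb3 to Ngn3. Gcg, Sst, Ppy and Ghrl of the non-β islet list were already counted among the other gut hormones, and Hhex among the transcription factors. For each count below, the shares over all probes were 20.7% higher and 22.5% lower with Dox. Of 11 neuronal markers, 10 were higher in Dox(+) than in Dox(−) EBs. Their levels above background summed to 175 and 194 in Dox(+) EBs and 2.30 to 2.58 in Dox(−) EBs, where 9 of the 11, Dcx and Stmn2 among them, were at background, against 280 to 307 in βTC6 cells, 81.5 to 81.8 in islets and 22.6 to 24.9 in E15.5 pancreas. Neurons can also express Cck, Nts and Tac1. All 6 markers of islet cells other than β cells rose as well, with sums of 198 to 223 in Dox(+) EBs and 6.22 to 6.60 in Dox(−) EBs. Of 7 β cell markers 4 were higher and 0 lower, with sums of 7.31 to 8.21 in Dox(+) EBs and 1.27 to 2.18 in Dox(−) EBs, and Pdx1 was at background in both. Ins1, Ins2 and Iapp had no probe with a single gene symbol, so the β cell sums leave out insulin. The study reports insulin as raised by Dox on these arrays. Of 10 acinar markers 6 were higher and 0 lower, with sums of 27.3 to 31.4 in Dox(+) EBs and 8.55 to 9.18 in Dox(−) EBs. Cpa1 made up the largest share of the Dox(+) sums, at 13.1 and 17.4, against 0.478 and 0.450 in Dox(−) EBs. Cela3b was at background in both groups. Of 6 tested ES cell markers 2 were higher and 1 lower, which is not far from the shares over all probes. Markers of the gut epithelium went the other way. Of 10 tested, 7 fell with Dox and 1, Lgr5, rose. The 11 summed to 60.3 to 76.5 in Dox(+) EBs and 293 to 349 in Dox(−) EBs. Tff3 made up the largest share of these sums and was saturated on Dox(−) replicate 1, so the sum there is a lower limit. Cdx2, the homeodomain factor that defines intestinal epithelium, read 4.05 and 3.13 in Dox(+) EBs, against 45.6 and 48.2 in Dox(−) EBs (13.2-fold lower, adjusted p = 1.95e-07 from limma), and Apoa4 and Olfm4 were at background on both Dox(+) arrays.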

How the data were processed

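The authors' scanner software, CodeLink Expression Analysis 4.1.0.29054, took the mean intensity of a spot, subtracted its local background median and scaled to the median of the 34967 discovery probes on that array. These deposited intensities were used as given. Control spots (1260 of 36227) were left out. Masked, contaminated and irregular spots counted as missing, and saturated spots as limits. The invalid-probe removal and the GeneSpring step of the methods could not be repeated. Probe names came from the platform annotation (21615 probes with 1 symbol, 681 with several, 12671 with none).

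Levels under 0.27 were set to 0.27, log2 was taken, and limma 3.58.1 in R 4.3.3 was fitted to all 10 arrays with 1 mean per group (trend and robust eBayes, 5 residual degrees of freedom). A probe was tested if some group had it above background in both replicates, with Benjamini-Hochberg adjustment over all tested probes. A fold is written as at least its value in 2 cases. In the first, the lower group was at background in both replicates, and its mean then used, per array, the higher of its own level and the lowest level above background. In the second, the higher group had a saturated spot. No call is made where both were saturated in both replicates. The fit was checked on simulated data. Tables were made with Python 3.11.15 and pandas 2.3.3. Genes named from lists are those with the 2 largest and 2 smallest differences, and further ones were picked with their values in view. The members and lists were chosen with earlier results of these data known, and the study itself names Gip, Cck, Pyy and Sct from these arrays. The number of arrays limits the precision. The alternatives were other normalizations, floors, filters and spot rules, a replicate block, leave-outs of single arrays and a minimum of 2-fold.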

Additional observations from a re-analysis of the deposited data

How the results depend on the processing

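For the comparison of Dox(+) with Dox(−) EBs, 6 genes higher and 0 lower was found under every alternative that tested all 8 genes, leave-outs included. Requiring a probe above background on all 10 arrays left 3 genes with a value. The counts higher and lower were then 2 and 0 against Dox(−) EBs and 2 higher against E15.5 pancreas, where Insl5 stayed lower. They were 1 lower against βTC6 cells, where Gip and Pyy stayed higher, and 1 higher and 0 lower against islets. Between the standards they were 0 higher and 1 lower for βTC6 cells against islets. For βTC6 cells against E15.5 pancreas 0 were higher, while Gip and Pyy stayed lower. For islets against E15.5 pancreas they were 1 higher and 1 lower. Both quantile settings left 3 genes lower than in βTC6 cells instead of 5. Of 28166 probes, 8740 were lower under quantile and 8630 under normexp with quantile normalization, against 10552 as fitted. A floor of 1, or no filter on background, left 0 of the 8 genes lower than in E15.5 pancreas. Among all probes, 5415 of 28146 were lower with that floor and 6920 of 34801 without the filter. Keeping contaminated and irregular spots gave 2 genes lower against islets and 2 lower against E15.5 pancreas, with Tph1 added in each. With these spots kept, 8892 of 28194 probes were lower against islets and 7576 of 28177 against E15.5 pancreas. With a 2-fold minimum 1 gene was lower in βTC6 cells than in islets. Pyy was at least 1.73-fold higher in Dox(+) EBs than in E15.5 pancreas. This lower limit is under the minimum, so whether Pyy reaches it there was not measured. Leaving out 1 array gave 4 to 5 genes lower against βTC6 cells, 1 to 2 lower against islets, 0 to 2 lower against E15.5 pancreas, 4 to 5 higher for βTC6 cells against islets, 4 to 5 higher for βTC6 cells against E15.5 pancreas, and 3 to 4 lower for islets against E15.5 pancreas, with the other counts as given above (6 and 0, 3, 4, 6, 2, 2 and 2).

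Signs turned only for differences that did not pass the test or had no measured order. Pyy between Dox(+) EBs and islets became 0.044 under quantile and 0.045 under normexp with quantile normalization. Insl5 between Dox(+) and Dox(−) EBs became -0.020 and -0.021 under these 2, and ranged from -0.36 (without Dox(−) replicate 2) to 0.37 (without Dox(−) replicate 1) when 1 array was left out, with -0.08 without Dox(+) replicate 2. Insl5 between βTC6 cells and E15.5 pancreas became -0.55 and -0.53 under the 2 quantile settings and ranged from -0.13 (without βTC6 replicate 1) to 0.24 (without βTC6 replicate 2), with -0.08 without E15.5 replicate 2. Tph1 between islets and E15.5 pancreas ranged from -0.17 (without islets replicate 2) to 0.024 (without islets replicate 1). The causes were not tested. Of the single-gene values under alternatives, 985 kept direction and side of the threshold, 19 lost a call, 16 gained one and 11 changed sign.

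Same-numbered arrays of different groups deviated with correlations of -0.07 to 0.07, so they showed no shared shift over the probes. Whether same-numbered samples came from the same culture run cannot be read from this and is not in the labels. With the replicate number as a block, 6 genes were higher and 0 lower against Dox(−) EBs, and no count of these genes changed. The block gave 5718 higher and 6173 lower probes, against 5837 and 6354. A second probe per gene could not be tried, since each gene has 1 probe. Sct in βTC6 cells and Tph1 in E15.5 pancreas rest on 1 array and have no value without it. A floor of 1 or normexp with quantile normalization lowered folds against groups with levels under or near the floor, for example from 61.0 to 18.7 and 26.3 for Nts in Dox(+) EBs over E15.5 pancreas, with the test still passed. Saturation hides the size of the Gip, Cck and Pyy levels, and a net signal of 1.66 to 2.63 times the local background limits the lowest ones.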
